A study of Mus musculus with 12 samples.

Results

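The comparison described here is RUNX1 knockout (KO) against control (WT) in haematopoietic stem cells (HSCs) sorted as CD41-positive (CD41pos) from mouse bone marrow, over all genes. Its members are 6 of the 12 libraries of the series, 3 labelled KO and 3 labelled WT, chosen by genotype and gate as the labels give them. KO mice were MxCre1+/-,RUNX1f/f and WT mice MxCre1-/-,RUNX1f/f, so the controls carried the same floxed alleles and lacked only the recombinase. Both received 4 injections of poly(I:C), a synthetic double-stranded RNA, and marrow was taken 4 weeks after injection. MxCre is driven by an interferon-inducible promoter and is not restricted to stem cells, so recombination can also have occurred in other cells of these mice. The other 6 libraries are the CD41-negative (CD41neg) cells of the same genotypes. The sources used here state neither ages nor the markers other than CD41 that defined the sorted HSCs. The labels do not say that each library came from its own animal, so p-values reflect library-to-library spread, part of which may be technical.

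RUNX1 is a DNA-binding transcription factor that pairs with CBFB and recruits activators or corepressors to its target genes. It is required for blood stem cells to form in the embryo, and in the adult it shapes the megakaryocyte, lymphoid and myeloid lineages; inherited loss of a copy causes low platelet counts and a risk of leukaemia. CD41 is the integrin alpha-IIb chain, found on megakaryocytes, on platelets and on stem cells with a platelet bias.

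Total counts of the 6 libraries ran from 45673485 to 57426490 reads, and 22415 to 26691 genes had at least 1 count. Levels are CPM, the reads of a gene per TMM-scaled library size, given in the order WT 1, 3 and 4 and KO 1, 2 and 3, and differences are log2 fold changes of KO against WT ± SE. The SE was derived from the test, as the absolute log2 fold change over the square root of its F statistic. It is therefore no estimate of spread apart from the p-value. A gene is said to have risen or fallen where its adjusted p was below 0.05. All 3 KO libraries lay above all 3 WT libraries for 21.9% of tested genes and below them for 22.4%, so groups without overlap were common. The WT libraries were not alike. The immediate early gene Nr4a1 measured 24.9, 345 and 27.7 CPM in WT 1, 3 and 4 and 294, 304 and 258 CPM in KO, so WT 1 and 4 stood apart from WT 3 and from every KO library. A fit with a term for WT 1 and 4 and for CD41neg WT 2 and 4 is called the term fit. These are the WT libraries numbered up to 6 in the column headers. Every WT library has a lower number there than every KO library, so genotype and library order cannot be told apart. In the term fit the CD41pos contrast rests mostly on WT 3 among the WT libraries, so its values are not independent support. Without the 4 WT libraries 1 WT library a gate is left. Xist, the transcript of the inactive X chromosome, measured 246, 339 and 210.0 CPM in WT and 0.985, 318 and 0.843 CPM in KO, and Ddx3y, on the Y chromosome, 0.0355, 11.2 and 22.4 CPM in WT against 97.4, 0.161 and 83.4 CPM in KO. WT 3 and 4 thus held transcripts of both sexes, and the sexes were not balanced between the genotypes. With the summed level of 4 Y-linked genes as a covariate 3204 genes were called, beside 3309 without it. Counts of WT 3 differed from those of WT 1 and WT 4 by 230.1 and 262 in chi-square per degree of freedom, against 21.4 to 42.3 for all other pairs within a group.

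The cells carried RNA of stem cell genes in both genotypes. Kit, the stem cell factor receptor, measured 571, 184 and 639.9 CPM in WT and 834, 685 and 765 CPM in KO. The transcription factor gene Mecom measured 74.8, 23.4 and 84.8 CPM in WT against 55.6, 47.2 and 64.9 CPM in KO. Hlf, another stem cell transcription factor gene, was at 109, 74.4 and 131 CPM in WT against 94.0, 61.8 and 102 CPM in KO, and Procr, a surface receptor used to enrich HSCs, at 35.2, 18.1 and 41.3 CPM in WT against 22.8, 6.24 and 19.9 CPM in KO. None of these 4 genes passed the test. Other stem cell markers did, as given below: Slamf1 rose and Hoxb5 fell. Il7r, a lymphoid progenitor receptor gene, was at most 2.43 CPM in any of the 6 libraries. Mpo, the myeloperoxidase gene of granulocyte progenitors, was at 4211, 2789 and 3699 CPM in WT and 2924, 1278 and 1730 CPM in KO, so its RNA was abundant in every library. The progenitor marker Cd34 averaged 229.5 CPM in WT and 267.2 CPM in KO and did not pass (log2 fold change 0.219, adjusted p = 0.706). Cd48, another progenitor marker, rose, as given below.

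Runx1 itself had a higher gene total in KO, at 159, 141 and 147 CPM in WT and 270.4, 382 and 325 CPM in KO. The groups did not overlap, and the log2 fold change was 1.13 ± 0.15 (adjusted p = 0.00201). A gene total also counts exons that remain after recombination, and the labels do not say which part is floxed, so the total does not check the deletion. Runx1 lies on chromosome 16, 92601466 to 92826149, minus strand, in the mm10 build. Among 17 genes of the RUNX family, CBFB and their corepressors, 5 rose and 2 fell (4 higher and 1 lower in the offset fit, as counted, 2 higher and 0 lower without CD41pos KO 2). These were 29.4% and 11.8% of the list, beside 9.79% and 7.27% of all 19395 tested genes, and the median was 0.08 beside -0.08 over all genes. Sin3a, a corepressor scaffold, rose by 0.85 on the log2 scale, while Tle2, a Groucho corepressor, was at -1.77 ± 0.43 (adjusted p = 0.0183). Hdac1 and Ncor1, the most abundant corepressor genes that did not pass, were at 0.08 ± 0.09 and 0.17 ± 0.11. Runx3 was among the rises, at 0.401 ± 0.125 (adjusted p = 0.0457). Among the genes named here, the call ended without 1 library for Runx3 (9 of 12 fits, adjusted p up to 0.146 without CD41pos KO 3). It also ended for Tle2 (2 of 12 fits, adjusted p up to 0.0834 without CD41pos KO 2). In the term fit Runx3 and Tle2 did not pass (adjusted p = 0.164 and 0.0722).

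Of 19395 genes tested, 3309 passed (17.1%), with 1899 higher (9.79%) and 1410 lower in KO (7.27%). At least 1 on the log2 scale was reached by 1417 of them (7.31%). Among called genes whose higher group averaged 10 CPM or more, with no overlap of the libraries, Prss34 fell by 8.75 and Mcpt8 fell by 7.35, whereas Chst1 rose by 3.20 and Alox12 by 3.09. The term fit called 2496 genes higher and 2076 lower. A call was made in the same direction by the standard fit, the term fit, the replicate block, DESeq2, log2(TPM + 1) and all 12 fits without 1 library for 465 higher and 208 lower genes (2.4% and 1.07%). With the offsets described next as well, it was made for 335 and 169 genes (1.73% and 0.871%). The count was lower without a KO library than without a WT library: it was 1580, 965 and 1175 genes without KO 1, 2 and 3, against 2351, 2659 and 4076 without WT 1, 3 and 4. Where leaving out 1 of the 12 libraries moved the count of a list by over 1.5 times, its lowest or highest count is given in parentheses, always for the counts without offsets. List counts in the term fit are given where they moved as much or the balance of rises and falls was lost or turned.

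**Figure D1:**
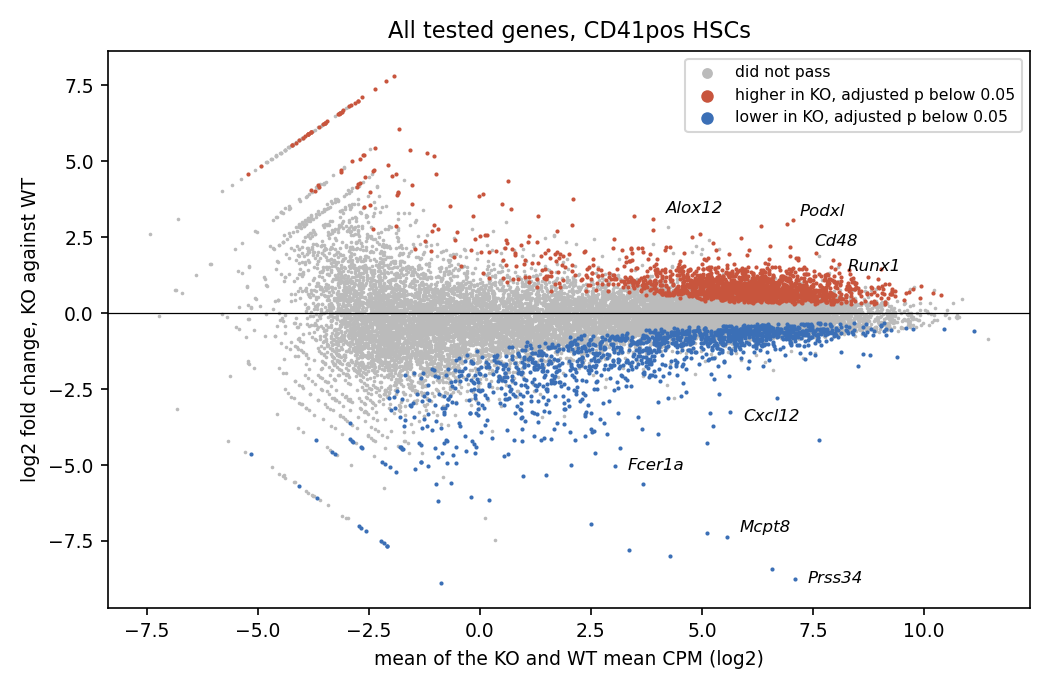
All tested genes with at least 1 count in the 6 libraries. The x axis is the log2 of the mean CPM of KO and WT, the y axis the log2 fold change of KO against WT, and each point is a gene, red or blue where the adjusted p was below 0.05. Prss34 (-8.75) and Mcpt8 (-7.35) lie lowest among the labelled genes, and Podxl (2.92) and Alox12 (3.09) highest.

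The fold changes followed the length and base composition of the transcripts. Over 11098 genes with a mean of at least 5 CPM and an annotated transcript, the log2 fold change had a Spearman correlation of 0.49 with the length of the longest transcript and -0.49 with its GC share, as a description across genes of the same 6 libraries. In the shortest decile of genes (up to 1322 bases) the median log2 fold change was -0.50, 1.35% were higher and 16.7% lower. In the longest decile (6670 bases and over) the median was 0.45, and 36.7% were higher and 2.79% lower. The decile richest in GC had a median of -0.48 and the poorest 0.50. WT 3 departed most, at 0.75 above the mean of the 12 libraries in the shortest decile and 0.53 under it in the decile next to the longest. Without WT 3 the shortest and longest deciles were at -0.19 and 0.36, the GC-richest and GC-poorest were at -0.29 and 0.36, and the correlations were 0.39 and -0.49, so both spans were smaller. The same order held in CD41neg cells, at -0.24 and 0.38. A fit with offsets for length and GC, called the offset fit, brought both correlations to 0.01 and called 1849 of 17119 genes (10.8%), 1001 higher (5.85%) and 848 lower (4.95%). Of the 3309 calls, 3191 were among those genes and 1391 of them passed again in the same direction. The offsets also remove any difference between the genotypes that follows length or GC, and the source of the pattern was not tested. Lists are given as counted and in the offset fit. Their counts stand beside 9.79% higher and 7.27% lower over all tested genes, and 5.85% and 4.95% in the offset fit. A list near these shares is no result about its members.

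**Figure D2:**
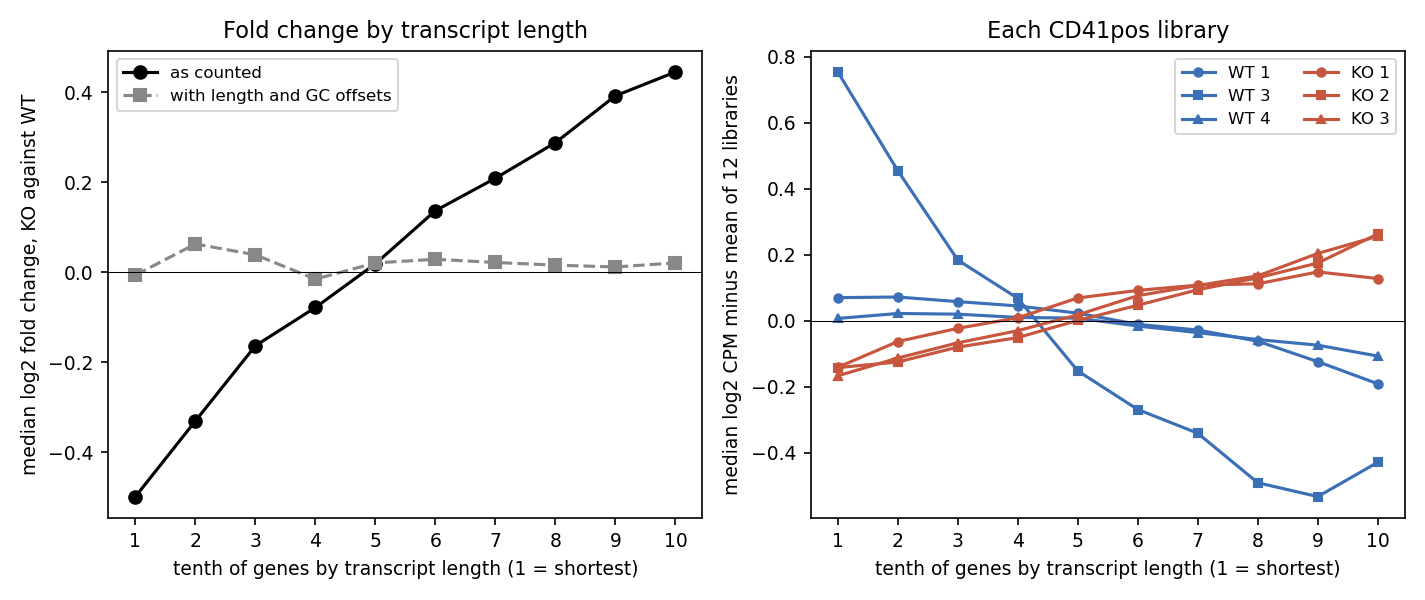
Fold change and library level by transcript length. Left, the median log2 fold change of KO against WT in 10 equal groups of 1108 to 1111 genes from shortest to longest, as counted (black) and with offsets (grey). Right, the median log2 CPM of each CD41pos library minus the mean of the 12 libraries; WT 3 runs from 0.75 to -0.43 and the KO libraries from between -0.14 and -0.17 to between 0.13 and 0.26.

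Of 9 SLAM family genes, surface receptors used to sort stem and progenitor cells, 3 rose and 0 fell, with 2 and 0 in the offset fit and a median of 0.69. Cd48, a surface protein whose absence is commonly used to mark HSCs, measured 58.8, 75.7 and 54.8 CPM in WT and 213, 225 and 229 CPM in KO. Every KO library was above every WT library by more than the spread of either group, and the gene rose 3.52-fold (1.82 ± 0.17, adjusted p = 0.000466). Slamf1, or CD150, which marks stem cells and those of platelet bias, measured 56.1, 31.4 and 50.6 CPM in WT against 122, 139.8 and 128 CPM in KO and rose by 1.5 (adjusted p = 0.00273). Both genes rose together, although the surface phenotype of HSCs is usually read as CD150-positive and CD48-negative. The third to rise, Slamf6, stayed at or below 1.42 CPM. Tek, the angiopoietin receptor TIE2 of endothelial and stem cells, measured 55.1, 16.8 and 62.0 CPM in WT, lowest in WT 3, and 109.5, 137 and 116 CPM in KO (1.44 ± 0.35, adjusted p = 0.0185). Without 1 of the 12 libraries calls ended for Tek (2 of 12 fits, adjusted p up to 0.0719 without CD41pos KO 2).

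Of 32 genes of stem cell identity and self-renewal, 2 rose and 5 fell, with a median of -0.16. These were 6.25% and 15.6%, beside 9.79% and 7.27% of all genes. In the offset fit 2 rose and 3 fell (as counted, 1 higher and 2 lower without CD41pos KO 2 and 4 higher and 7 lower without CD41neg KO 2). Ndn, encoding necdin, a growth suppressor of quiescent stem cells, measured 19.8, 21.5 and 23.9 CPM in WT and 2.94, 0.789 and 2.39 CPM in KO. It fell in all 3 KO libraries, by 3.41 on the log2 scale (adjusted p = 0.00428). Msi2, an RNA-binding protein of self-renewal, was at 40.1, 71.1 and 45.5 CPM in WT against 20.3, 21.4 and 26.6 CPM in KO (-1.20 ± 0.26, adjusted p = 0.0109), and Hoxb5, a marker of long-term HSCs, at 10.5, 13.7 and 8.17 CPM in WT against 4.14, 4.25 and 4.14 CPM in KO (-1.37 ± 0.27, adjusted p = 0.00824). The groups did not overlap for any of the 3, with KO below WT as for 22.4% of all tested genes. Cdkn1c, encoding the cell cycle inhibitor p57, measured 24.9, 26.1 and 26.7 CPM in WT against 8.48, 7.46 and 8.60 CPM in KO (-1.66 ± 0.46, adjusted p = 0.0294). Among 26 genes linked to stem cell ageing 2 rose and 4 fell (2 higher and 5 lower in the offset fit, as counted, 1 higher and 1 lower without CD41pos KO 2). The term fit gave 6 higher and 4 lower (8 and 4 without the 4 WT libraries) for stem cell identity and self-renewal and 3 higher and 3 lower (5 and 2 without the 4 WT libraries) for ageing-linked stem cell genes. Sensitive to the choice of libraries were the calls of Msi2 (1 of 12 fits, adjusted p up to 0.0545 without CD41pos KO 2) and Cdkn1c (5 of 12 fits, adjusted p up to 0.107 without CD41pos KO 2). In the term fit Cdkn1c did not pass (adjusted p = 0.0688). With length and GC offsets the call ended for Cdkn1c (adjusted p = 0.11).

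Among 22 HOX genes and their partner factors, 7 fell and 1 rose, with a median of -0.84, and 4 fell and 0 rose in the offset fit (as counted, 0 higher and 2 lower without CD41pos KO 1). HOX genes encode the transcription factors that set position along the body axis, and several are active in stem cells. The falls included Hoxb2, Hoxb3, Hoxb5, Hoxb6 (-1.83 ± 0.50) and Hoxb9 (-5.07 ± 1.39) of the HOXB cluster. Hoxb2 measured 19.4, 30.5 and 22.2 CPM in WT and 5.65, 7.49 and 5.99 CPM in KO (-1.91 ± 0.24, adjusted p = 0.00201), and Hoxb3 3.32, 4.4 and 2.79 CPM in WT against 0.949, 0.789 and 1.65 CPM in KO (-1.63 ± 0.35, adjusted p = 0.0114). Both were lower in every KO library than in any WT library, as were 22.4% of all tested genes. Meis1, the most abundant member, did not pass, at 320.0, 208 and 353 CPM in WT against 438, 482 and 461 CPM in KO (0.65 ± 0.27, adjusted p = 0.103). When single libraries were left out, the test no longer passed for Hoxb6 (4 of 12 fits, adjusted p up to 0.103 without CD41pos KO 2), Hoxb9 (5 of 12 fits, adjusted p up to 0.0946 without CD41pos KO 1) and Hoxb3 (2 of 12 fits, adjusted p up to 0.0618 without CD41pos KO 2). With the term for those WT libraries the adjusted p was above the threshold for Hoxb6 (0.143). The offsets ended the call of Hoxb6 (adjusted p = 0.0826).

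Of 28 genes of homing and adhesion to the niche 10 rose and 2 fell (35.7% and 7.14%), and 8 rose and 3 fell in the offset fit. Podxl encodes podocalyxin, a sialomucin of the CD34 family. It measured 29.0, 34.1 and 20.7 CPM in WT and 171, 257 and 208 CPM in KO, 7.59-fold higher (2.92 ± 0.31, adjusted p = 0.000935). The lowest KO library was far above the highest WT library. Itgb2, the common chain of the leukocyte integrins, measured 89.1, 57.6 and 98.9 CPM in WT against 213, 235 and 226 CPM in KO (1.46 ± 0.22, adjusted p = 0.00299). S1pr1, the sphingosine phosphate receptor that guides cells out of tissue, measured 25.6, 24.3 and 29.9 CPM in WT against 66.1, 67.0 and 65.4 CPM in KO (1.31 ± 0.26, adjusted p = 0.00872). Jam3, a junctional adhesion molecule of HSCs, rose by 1.55 and Itga4, the alpha chain of VLA-4, by 1.03 on the log2 scale. Among the genes that fell was Selplg, the selectin ligand PSGL-1, at 245, 266 and 244 CPM in WT and 161, 113 and 132 CPM in KO (-0.90 ± 0.16, adjusted p = 0.0062). Cd47 and Cd81, the most abundant members that did not pass, were at -0.03 ± 0.10 and -0.16 ± 0.12. In the offset fit Itga4 did not pass (adjusted p = 0.0507).

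**Figure D3:**
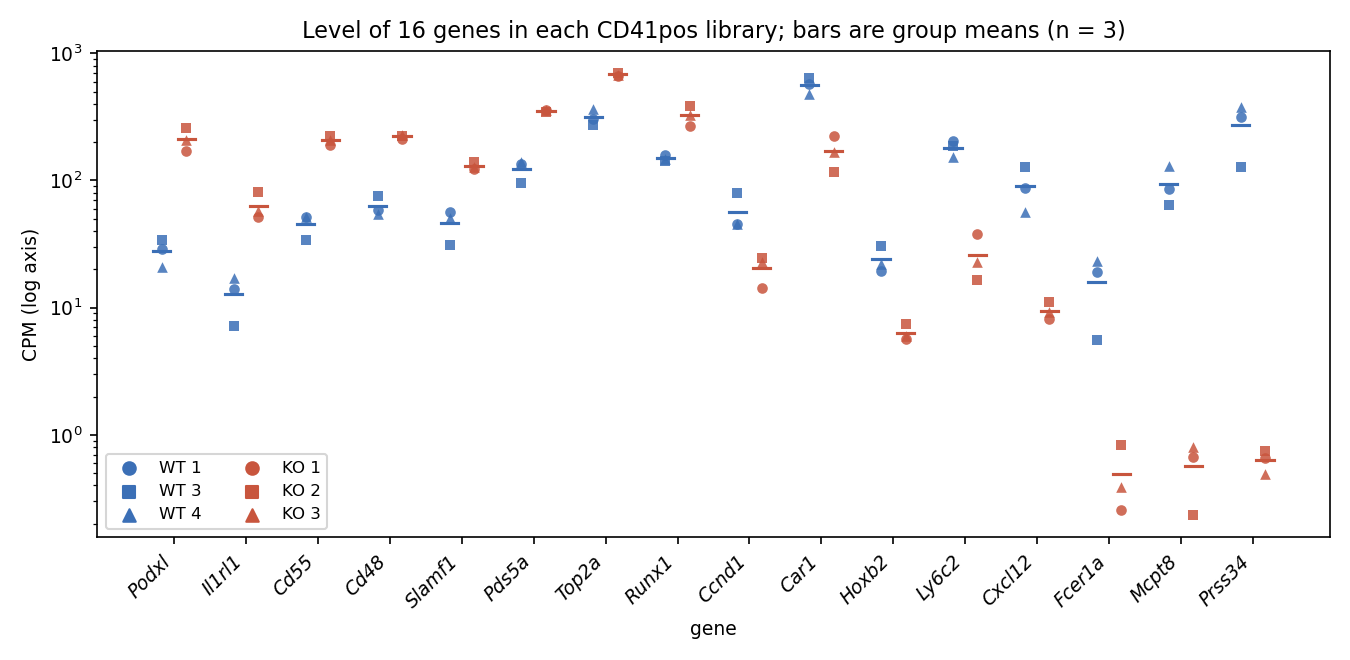
Level of 16 genes in each CD41pos library. The y axis is CPM on a log scale, symbols are single libraries and bars are group means (n = 3). The 16 genes were picked from called genes with their values known, some by a rule that asked for no overlap. That WT and KO libraries do not overlap for any of them is thus no separate result. They run from Podxl (20.7 to 34.1 against 171 to 257 CPM) to Prss34 (128 to 379 against 0.491 to 0.753 CPM).

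Receptors for cytokines moved in both directions, with 8 of 36 higher and 5 lower (22.2% and 13.9%, beside 9.79% and 7.27% of all genes). In the offset fit 5 rose and 4 fell (as counted, 2 higher and 1 lower without CD41pos KO 2). Il1rl1 encodes ST2, the receptor for the alarmin IL-33. It measured 14.0, 7.20 and 17.1 CPM in WT and 51.9, 81.0 and 57.3 CPM in KO and rose by 2.31 (adjusted p = 0.00271). Il10rb, a shared chain of the IL-10 and interferon lambda receptors, measured 48.0, 46.7 and 53 CPM in WT against 85.8, 90.1 and 85.5 CPM in KO (0.82 ± 0.12, adjusted p = 0.00294). The signalling chain genes Csf2rb and Csf2rb2 were at 1.09 ± 0.27 and 1.41 ± 0.32 (adjusted p = 0.0206 and 0.013). They are near-identical neighbours between which reads can be split, so their separate values are uncertain. Csf2ra and Il3ra, the binding chains for GM-CSF and IL-3 that pair with them, were lower, at -0.81 ± 0.17 and -1.21 ± 0.32 (adjusted p = 0.00925 and 0.0249). Cnr2, the cannabinoid receptor CB2 and no cytokine receptor, was among the firmest rises, at 34.8, 15.5 and 26.8 CPM in WT and 96.6, 135 and 91.3 CPM in KO (2.07 ± 0.28, adjusted p = 0.00201). Sensitive to the choice of libraries were the calls of Csf2rb (2 of 12 fits, adjusted p up to 0.0935 without CD41pos KO 2), Csf2rb2 (1 of 12 fits, adjusted p up to 0.0665 without CD41pos KO 2), Csf2ra (1 of 12 fits, adjusted p up to 0.0536 without CD41pos KO 2) and Il3ra (4 of 12 fits, adjusted p up to 0.0961 without CD41pos KO 2). The offsets ended the call of Csf2ra and Il3ra (adjusted p = 0.0944 and 0.103).

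Cd55, or decay-accelerating factor, which protects cells from complement, had the lowest adjusted p together with Cd48 and Prss34. It measured 52.0, 33.9 and 51.7 CPM in WT and 190.3, 224 and 206 CPM in KO. All KO libraries were more than 3 times the highest WT library, and the log2 fold change was 2.17 ± 0.20 (adjusted p = 0.000466). Asph, an aspartyl hydroxylase, at 86.6, 44.2 and 98.4 CPM in WT against 290.2, 325 and 298 CPM in KO, and Col18a1, a basement membrane collagen, at 33.8, 26.3 and 21.5 CPM in WT against 72.0, 119 and 115 CPM in KO, rose by 1.99 and 1.9 on the log2 scale. Mylk3, a myosin light chain kinase best known from heart muscle, was at 10.5, 3.97 and 12 CPM in WT against 45, 72.5 and 42.8 CPM in KO (2.59 ± 0.42, adjusted p = 0.0039).

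Platelet genes moved in both directions. Among 17 platelet adhesion receptors 5 rose and 2 fell (29.4% and 11.8%). Among 26 genes of alpha-granule cargo and biogenesis 6 rose and 3 fell (23.1% and 11.5%). The shares of all genes were 9.79% and 7.27%. With offsets the counts were 5 and 1 (as counted, 2 higher and 0 lower without CD41pos KO 2), and 6 and 2 (as counted, 1 higher and 1 lower without CD41pos KO 2). Itga2b, the gene of the sorted antigen CD41, was at 628, 551 and 682 CPM in WT and 1028, 1268 and 1058 CPM in KO. The groups did not overlap, but it missed the threshold (0.85 ± 0.28, adjusted p = 0.0547), and in the offset fit it passed (1.10, adjusted p = 0.0321). Gp5, a chain of the von Willebrand factor receptor complex, was at 188, 202 and 182 CPM in WT against 346, 394 and 339 CPM in KO (0.92 ± 0.16, adjusted p = 0.0049). Treml1, a receptor of platelet granules, was at 36.1, 59.9 and 35.1 CPM in WT against 133, 142 and 130.1 CPM in KO and rose by 1.63 (adjusted p = 0.00323). Pf4, the granule chemokine platelet factor 4, was lower, at 222, 357 and 232 CPM in WT and 105, 93.5 and 113 CPM in KO (-1.38 ± 0.41, adjusted p = 0.0372). Serpine2, an inhibitor of thrombin, fell in all 3 KO libraries, from 81.2, 59.3 and 75.4 CPM in WT to 15, 9.21 and 10.1 CPM in KO (-2.65 ± 0.38, adjusted p = 0.00271). Vwf, von Willebrand factor, did not pass, at 262, 93.3 and 215 CPM in WT and 199, 306 and 285 CPM in KO. Calls that ended when 1 library was left out were those of Pf4 (6 of 12 fits, adjusted p up to 0.127 without CD41pos KO 2). With length and GC offsets the call ended for Pf4 (adjusted p = 0.11).

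Receptors for the soluble platelet agonists showed 5 of 18 higher and 1 lower, and 4 and 1 with offsets (as counted, 3 higher and 0 lower without CD41pos KO 2). F2r, the thrombin receptor PAR1, was the most abundant to rise, at 332, 162 and 354 CPM in WT and 680.3, 878 and 754 CPM in KO (1.45 ± 0.29, adjusted p = 0.0083). P2ry1, an ADP receptor, measured 45.6, 32.9 and 44.1 CPM in WT against 115, 178 and 133 CPM in KO (1.80 ± 0.25, adjusted p = 0.00227). Tbxa2r, the thromboxane receptor, went the other way, at 49.4, 59.2 and 46.2 CPM in WT against 20.8, 21.8 and 26.4 CPM in KO (-1.16 ± 0.32, adjusted p = 0.03). Thbd, or thrombomodulin, which turns thrombin towards protein C, measured 25.7, 16.8 and 21.3 CPM in WT against 61.1, 60.9 and 59.8 CPM in KO (1.51 ± 0.23, adjusted p = 0.003). Among eicosanoid enzymes 1 of 14 rose and 2 fell (1 higher and 2 lower in the offset fit). These were 7.14% and 14.3% as counted, beside 9.79% and 7.27% of all genes. Alox12, the platelet enzyme, was at 4.83, 2.29 and 2.32 CPM in WT and 26.1, 30.2 and 24.4 CPM in KO (3.09 ± 0.51, adjusted p = 0.00392), while Alox15, the enzyme of eosinophils and macrophages, was at 7.5, 3.36 and 9.19 CPM in WT against 0.693, 0.771 and 0.807 CPM in KO (-3.14 ± 0.53, adjusted p = 0.00427). Counts with the term were 1 higher and 3 lower (3 and 1 without the 4 WT libraries) for eicosanoid enzymes. Without 1 of the 12 libraries calls ended for Tbxa2r (5 of 12 fits, adjusted p up to 0.107 without CD41pos KO 2). The offsets ended the call of Tbxa2r (adjusted p = 0.245).

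Enzymes that sulfate heparan sulfate and other carbohydrates were also split, with 3 of 25 higher and 6 lower, and 3 and 4 in the offset fit (as counted, 2 higher and 1 lower without CD41pos KO 2). Chst1, a keratan sulfate sulfotransferase, measured 2.36, 2.25 and 1.93 CPM in WT and 18.3, 27.1 and 14.8 CPM in KO (3.20 ± 0.46, adjusted p = 0.00271). Chst2, an enzyme of L-selectin ligands, moved opposite, at 16.2, 6.47 and 9.48 CPM in WT against 0.748, 0.556 and 0.843 CPM in KO (-3.90 ± 0.52, adjusted p = 0.00201). Hs3st1, the enzyme that makes the antithrombin-binding site of heparan sulfate, measured 7.66, 9.04 and 7.92 CPM in WT against 40.2, 50.1 and 49.5 CPM in KO (2.51 ± 0.37, adjusted p = 0.00293). List counts in the term fit were 4 higher and 4 lower (6 and 3 without the 4 WT libraries) for heparan sulfate and carbohydrate sulfotransferases.

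Of 22 basophil, mast cell and eosinophil genes tested, of 26 listed, 7 fell and 4 rose, with the same counts in the offset fit (as counted, 2 higher and 5 lower without CD41pos KO 2), and the median was -1.0. Tpsb2, a mast cell tryptase gene, had 0 counts in all KO libraries. Its WT level is not given here, so the 0 alone is not read as a loss. Prss34, the basophil protease mMCP-11, measured 316, 128 and 379 CPM in WT and 0.657, 0.753 and 0.491 CPM in KO, 431-fold lower (-8.75 ± 0.76, adjusted p = 0.000466). Mcpt8, the basophil protease mMCP-8, measured 86.2, 64.5 and 131 CPM in WT against 0.675, 0.233 and 0.807 CPM in KO, 164-fold lower (-7.35 ± 0.74, adjusted p = 0.000804). Fcer1a, the IgE-binding chain of the high-affinity receptor, measured 19, 5.54 and 23.3 CPM in WT against 0.255, 0.825 and 0.386 CPM in KO (-5.02 ± 0.83, adjusted p = 0.00404). The lowest of the 3 WT libraries for each was WT 3, which still lay far above every KO library. In bulk RNA, fewer cells of a type and less RNA per cell cannot be told apart. Gzmb, granzyme B, and Ccl3, a chemokine, fell too, by 3.56 and 2.19 on the log2 scale. The members that rose were Il1rl1, Slc45a3 (1.17 ± 0.21), Csf2rb and Csf2rb2, and Hdc, which makes histamine, did not pass at 72.3, 42.9 and 66.7 CPM in WT and 113, 67.5 and 67.5 CPM in KO. The term fit gave 7 higher and 7 lower (7 and 6 without the 4 WT libraries) for basophil, mast cell and eosinophil genes.

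Upstream sequences of the 3 basophil genes and of 2 genes that rose are shown, since the factor targeted in KO binds DNA. Each is the 250 bases before the annotated start in RefSeq (GRCm38.p6, the mm10 build), 5′ to 3′ on the strand of the gene. Capitals mark TGTGGT or TGCGGT, the core letters of RUNX sites, or AGATAA or TGATAA, the core of GATA sites, read on both strands. No 2 matches overlap.
Prss34: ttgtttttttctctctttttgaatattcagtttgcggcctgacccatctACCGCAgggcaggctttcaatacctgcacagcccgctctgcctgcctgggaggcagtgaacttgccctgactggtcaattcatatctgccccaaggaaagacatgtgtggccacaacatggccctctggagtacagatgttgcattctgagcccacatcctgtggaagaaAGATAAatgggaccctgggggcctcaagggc
Mcpt8: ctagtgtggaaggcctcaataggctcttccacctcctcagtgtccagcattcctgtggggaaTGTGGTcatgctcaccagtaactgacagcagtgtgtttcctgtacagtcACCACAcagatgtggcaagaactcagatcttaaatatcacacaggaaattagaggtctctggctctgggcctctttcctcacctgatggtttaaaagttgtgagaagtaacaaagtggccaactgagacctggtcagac
Fcer1a: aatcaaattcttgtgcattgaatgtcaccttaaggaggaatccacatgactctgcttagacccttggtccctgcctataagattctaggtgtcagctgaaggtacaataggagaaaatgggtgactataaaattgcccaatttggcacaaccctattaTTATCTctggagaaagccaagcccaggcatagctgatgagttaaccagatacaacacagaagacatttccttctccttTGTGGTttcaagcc
Cd48: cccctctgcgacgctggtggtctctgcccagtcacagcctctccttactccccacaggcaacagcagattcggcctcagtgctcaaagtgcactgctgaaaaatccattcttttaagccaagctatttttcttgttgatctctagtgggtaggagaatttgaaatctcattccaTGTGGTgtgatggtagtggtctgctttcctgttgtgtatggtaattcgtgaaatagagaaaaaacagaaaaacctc
Alox12: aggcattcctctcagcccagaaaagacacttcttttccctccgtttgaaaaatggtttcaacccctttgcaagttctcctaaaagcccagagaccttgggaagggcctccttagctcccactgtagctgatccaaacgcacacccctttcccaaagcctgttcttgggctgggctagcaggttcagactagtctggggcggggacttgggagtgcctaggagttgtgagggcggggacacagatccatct
The Prss34 window is chr17:25298144-25298393, plus strand, and holds 1 RUNX match on the opposite strand and 1 GATA match starting 31 bases before the start. The Mcpt8 window (chr14:56085198-56085447, minus strand) holds 2 RUNX matches and 0 GATA matches. The Fcer1a window (chr1:173227230-173227479, minus strand) holds 1 of each, with the RUNX match 14 bases before the start. The Cd48 window (chr1:171681742-171681991, plus strand) holds 1 RUNX match, and the Alox12 window (chr11:70255371-70255620, minus strand) holds none of either. A match is a description of letters and no evidence of binding. Over 32851 RefSeq windows 18.6% held a RUNX match, as did 18.0% of 17289 windows of tested genes (13513 genes), 15.6% of windows of genes higher in KO and 17.0% of those lower in KO. For GATA the shares were 16.6%, 11.5%, 9.94% and 10.8%. These letters replaced a first, wider search made on the same windows, with TGNGGT and NGATAA. With TGNGGT the shares were 40.1%, 38.9%, 34.5% and 41.3%, so genes lower in KO stood above all tested genes with the wider letters and below them with the narrower ones. With NGATAA they were 22.5%, 16.8%, 14.9% and 15.5%.

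Of 28 genes of granulocyte and monocyte progenitors 11 fell and 1 rose (39.3% and 3.57%), 8 and 1 with offsets (as counted, 0 higher and 4 lower without CD41pos KO 2), and the median was -0.83. Their summed level was 7020 to 8494 CPM in WT and 2849 to 5778 CPM in KO. Ly6c2, a surface antigen of monocytes and their progenitors, measured 204, 186 and 152 CPM in WT and 38.2, 16.6 and 23.0 CPM in KO (-2.80 ± 0.34, adjusted p = 0.00191). It has a close paralog, Ly6c1, with which reads may be shared. Cebpa, a master regulator of granulocyte fate, measured 25.5, 24.1 and 15.9 CPM in WT against 10.1, 4.21 and 7.23 CPM in KO (-1.60 ± 0.33, adjusted p = 0.00907), and Irf8, which directs monocyte fate, 81.0, 64.0 and 65.2 CPM in WT against 38.0, 34.1 and 34.4 CPM in KO (-0.98 ± 0.19, adjusted p = 0.00752). The KO libraries were below the WT libraries for all 3 genes, as for 22.4% of all tested genes. Spi1, encoding PU.1, was at -1.19 ± 0.27 (adjusted p = 0.0133), and the granule protease gene Elane at 1034, 1072 and 824 CPM in WT and 559, 216 and 296 CPM in KO (-1.45 ± 0.39, adjusted p = 0.0258). Mpo and Elane were highest in KO 1 among the KO libraries. Csf3r, the G-CSF receptor, was the 1 member that rose, at 76.7, 52.3 and 92.4 CPM in WT against 201, 153 and 187 CPM in KO (1.29 ± 0.38, adjusted p = 0.0383). Without 1 of the 12 libraries calls ended for Spi1 (2 of 12 fits, adjusted p up to 0.0669 without CD41pos KO 2), Elane (4 of 12 fits, adjusted p up to 0.105 without CD41pos KO 2) and Csf3r (6 of 12 fits, adjusted p up to 0.113 without CD41pos WT 3). With the term for those WT libraries the adjusted p was above the threshold for Elane and Csf3r (0.0569 and 0.14). In the offset fit Spi1 and Elane did not pass (adjusted p = 0.068 and 0.152).

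Of 27 erythroid genes 4 rose and 1 fell (14.8% and 3.70%, beside 9.79% and 7.27% of all genes). In the offset fit 5 rose and 1 fell (as counted, 2 higher and 1 lower without CD41pos KO 3 and 5 higher and 3 lower without CD41pos WT 4). Car1, the carbonic anhydrase of early erythroid and progenitor cells, was the gene that fell, from 573, 639.9 and 479.9 CPM in WT to 225, 117 and 168 CPM in KO (-1.73 ± 0.23, adjusted p = 0.00201). Tfrc, the transferrin receptor, rose by 1.18 and Sptb, the beta-spectrin of the red cell membrane, by 1.41 on the log2 scale. Among 20 megakaryocyte-erythroid transcription factors 4 rose and 1 fell (3 higher and 0 lower in the offset fit, as counted, 1 higher and 0 lower without CD41pos KO 2). Fli1, an ETS factor of megakaryocytes, was at 218, 155 and 251 CPM in WT against 389.9, 451 and 410.3 CPM in KO (1.00 ± 0.23, adjusted p = 0.0133), while Gata2 and Lmo2 did not pass, at -0.30 ± 0.13 and -0.28 ± 0.10. The term fit gave 3 higher and 1 lower (5 and 6 without the 4 WT libraries) for erythroid genes and 3 higher and 4 lower (4 and 8 without the 4 WT libraries) for megakaryocyte-erythroid transcription factors. Sensitive to the choice of libraries were the calls of Fli1 (1 of 12 fits, adjusted p up to 0.0589 without CD41pos KO 2).

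Of 29 mitosis genes 17 rose and 0 fell (58.6%), with a median of 0.62, and the fit without WT 3 also gave 17 and 0. In the offset fit 13 rose and 0 fell. All 3 KO libraries lay above all WT libraries for 20 of the 29, beside 21.9% of all genes. Top2a, the topoisomerase that untangles replicated chromosomes, measured 305, 274 and 367 CPM in WT and 668, 702 and 681 CPM in KO (1.12 ± 0.13, adjusted p = 0.00185). Mki67, the proliferation antigen Ki-67, measured 199, 236 and 249 CPM in WT against 459.6, 448 and 479 CPM in KO (1.02 ± 0.13, adjusted p = 0.00201), and Foxm1, the transcription factor of mitotic genes, 65.0, 65.9 and 76.1 CPM in WT against 119, 123 and 122 CPM in KO (0.81 ± 0.15, adjusted p = 0.00678). Both groups were tight and apart for each of the 3. Cdc20 and Incenp, the most abundant that did not pass, were at -0.08 ± 0.14 and 0.25 ± 0.12. Among 36 DNA replication genes 14 rose and 0 fell, 7 and 0 in the offset fit (as counted, 6 higher and 0 lower without CD41pos KO 2), with a median of 0.24. Pola1, a catalytic polymerase subunit, was at 81.0, 85.5 and 102 CPM in WT against 173, 202 and 195 CPM in KO (1.08 ± 0.17, adjusted p = 0.00324), and Mcm5 and Mcm7, of the replicative helicase, did not pass at 0.22 ± 0.11 and 0.07 ± 0.09. In the term fit 11 replication genes rose and 4 fell. The offsets ended the call of Pola1 (adjusted p = 0.0638).

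Regulators of entry into the cycle showed 2 of 14 higher and 5 lower, and 2 and 3 in the offset fit. As counted these were 14.3% and 35.7%, beside 9.79% and 7.27% of all genes. D cyclins start the cycle with CDK4 and CDK6. Ccnd1 measured 45.1, 79.0 and 45.6 CPM in WT and 14.2, 24.4 and 22.8 CPM in KO (-1.47 ± 0.31, adjusted p = 0.0107), and Ccnd2 458, 606 and 462 CPM in WT against 322, 286 and 321 CPM in KO (-0.72 ± 0.13, adjusted p = 0.0063). Ccnd3 did not pass, at 432, 782 and 424 CPM in WT against 453, 450.4 and 462 CPM in KO. Cdkn2c, the CDK inhibitor p18, fell as well (-0.77 ± 0.14, adjusted p = 0.00683). The pocket protein gene Rbl1, encoding p107, rose from 87.9, 76.3 and 99 CPM in WT to 164, 169.7 and 176 CPM in KO (0.95 ± 0.15, adjusted p = 0.00378). The inhibitor gene Cdkn2c and the cyclins Ccnd1 and Ccnd2 were thus lower in the same libraries in which 17 mitosis genes were higher. In the offset fit Cdkn2c did not pass (adjusted p = 0.109).

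Cohesin is the ring complex that holds sister chromatids together and extrudes chromatin loops up to CTCF. Of its 14 genes 10 rose and 0 fell (71.4%), and all 14 log2 fold changes were above 0, with a median of 0.57. The list is long and poor in GC, with a median transcript of 5110 bases and 42.4% GC, and in the offset fit 4 rose and 0 fell, with a median of 0.21. The 4 that passed in both fits were Pds5a, Pds5b, Stag1 and Stag2. Pds5a, a regulator of cohesin release, measured 135, 96.4 and 139 CPM in WT and 357, 346 and 358 CPM in KO (1.52 ± 0.16, adjusted p = 0.000919), with 0.99 in the offset fit. Stag2, a subunit mutated in myeloid leukaemia, measured 92.9, 45.1 and 104 CPM in WT against 221, 252 and 227 CPM in KO (1.53 ± 0.28, adjusted p = 0.00579), with 0.87 in the offset fit. The ring genes Smc1a, Smc3 and Rad21 were at 0.48 ± 0.10, 0.38 ± 0.10 and 0.48 ± 0.12, and in the offset fit at 0.11, -0.16 and 0.12 (adjusted p = 0.519, 0.531 and 0.639). Ctcf did not pass, at 0.20 ± 0.12. Without 1 of the 12 libraries calls ended for Smc3 (4 of 12 fits, adjusted p up to 0.121 without CD41pos KO 2) and Rad21 (3 of 12 fits, adjusted p up to 0.0771 without CD41pos KO 1). With the term for those WT libraries the adjusted p was above the threshold for Smc3 (0.0757).

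**Figure D4:**
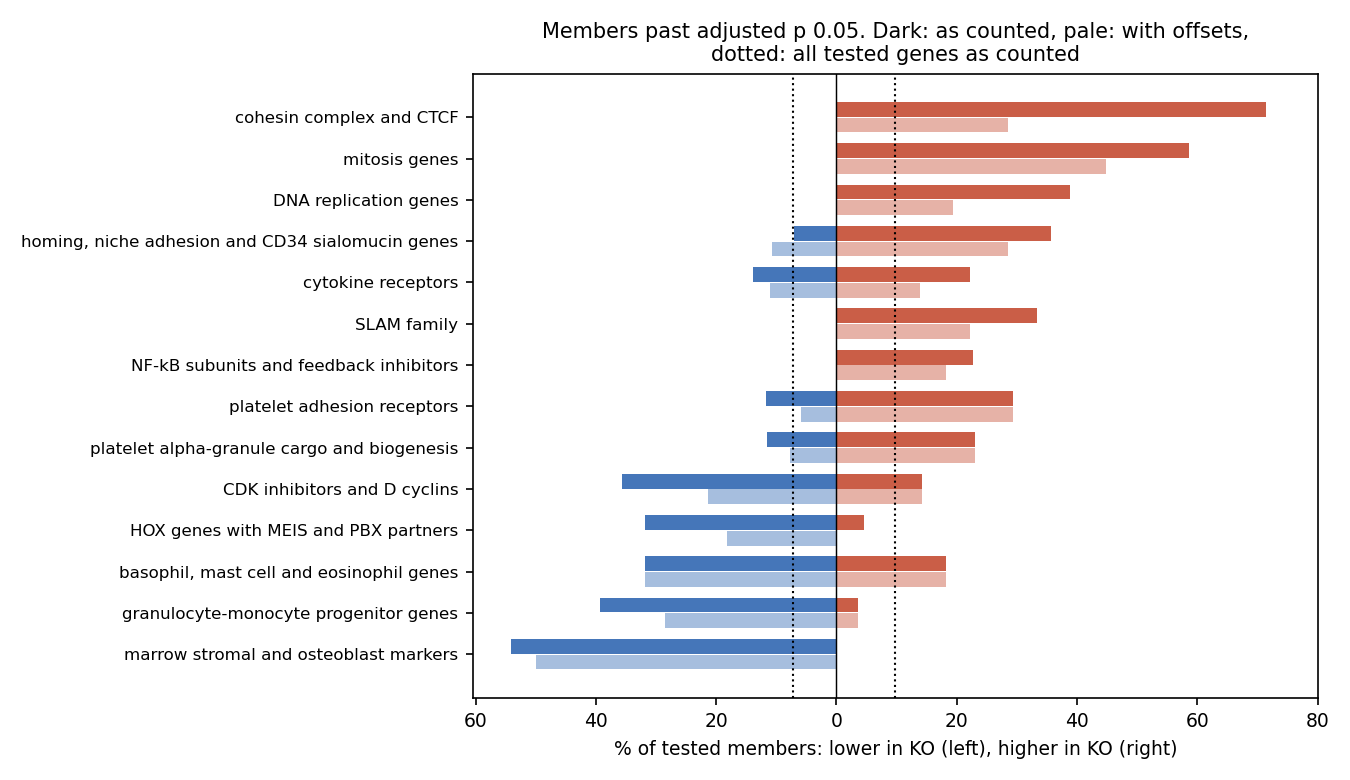
Share of tested members past an adjusted p of 0.05 in 14 gene lists. The x axis is the percentage of tested members, to the right higher and to the left lower in KO; dark bars are the counts as deposited, pale bars the fit with length and GC offsets, and the dotted lines are all tested genes (9.79% higher, 7.27% lower). Cohesin genes reach 71.4% as counted, with 4 of 14 in the offset fit.

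Among 22 NF-kB subunits and feedback inhibitors 5 rose and 0 fell, and 4 and 0 in the offset fit (as counted, 2 higher and 0 lower without CD41pos KO 1). Tnfaip3, the feedback inhibitor A20, measured 18.7, 21.1 and 18.4 CPM in WT and 135, 178 and 108 CPM in KO (2.86 ± 0.53, adjusted p = 0.00659). Every KO library was at least 5 times the highest WT library. Chuk, the kinase IKK-alpha, was at 43.3, 36.8 and 55.4 CPM in WT against 86.4, 94.7 and 87.3 CPM in KO (0.99 ± 0.19, adjusted p = 0.00751). Rela and Nfkbia did not pass, at 0.07 ± 0.10 and 0.09 ± 0.30. Of 40 interferon response genes 1 rose and 3 fell, near or under the shares of all genes, and 1 and 0 in the offset fit (as counted, 0 higher and 0 lower without CD41pos KO 2 and 5 higher and 4 lower without CD41pos WT 4). The 3 were Ifitm1, Ifitm3 and Bst2, short transcripts, at -1.30 ± 0.29, -0.65 ± 0.18 and -0.99 ± 0.26. Ifitm genes are close paralogs and share reads. Among immediate early and stress genes 1 of 29 rose and 1 fell (5 higher and 0 lower in the offset fit, as counted, 0 higher and 0 lower without CD41neg KO 1 and 10 higher and 0 lower without CD41pos WT 3). Their summed level was 4636, 10400 and 4174 CPM in WT and 8061 to 10530 CPM in KO, so WT 3 lay with the KO libraries. The median was 0.44 as counted, 0.78 with offsets and -0.29 in the term fit. List counts in the term fit were 4 higher and 5 lower (14 and 5 without the 4 WT libraries) for interferon response genes and 0 higher and 5 lower for immediate early and stress genes. When single libraries were left out, the test no longer passed for Ifitm1 (2 of 12 fits, adjusted p up to 0.0651 without CD41pos KO 2), Ifitm3 (5 of 12 fits, adjusted p up to 0.109 without CD41pos KO 1) and Bst2 (4 of 12 fits, adjusted p up to 0.0862 without CD41pos KO 1). In the offset fit Ifitm1, Ifitm3 and Bst2 did not pass (adjusted p = 0.0563, 0.288 and 0.174).

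Markers of other marrow cells differed between the groups as well, and their part in the results above was not tested. Of 24 stromal and osteoblast markers 13 fell and 0 rose (54.2%), 12 and 0 with offsets (as counted, 0 higher and 3 lower without CD41pos KO 3), and their summed level was 291.5 to 468 CPM in WT and 57.0 to 65.3 CPM in KO. None of the 24 was at 0 in all KO libraries. Cxcl12, the stem cell niche chemokine, measured 87.1, 127 and 56.7 CPM in WT and 8.08, 11 and 9.21 CPM in KO (-3.26 ± 0.37, adjusted p = 0.0015). Sparc, a matrix protein, was at 38.5, 34.0 and 26.4 CPM in WT against 5.34, 5.43 and 3.58 CPM in KO (-2.78 ± 0.42, adjusted p = 0.00297). Col1a1, the main bone collagen, was at 124, 3.11 and 80.3 CPM in WT, with WT 3 near the KO libraries at 0.401, 0.376 and 0.579 CPM (-7.24 ± 1.96, adjusted p = 0.0274), and in the term fit it was at -2.39 (adjusted p = 0.218). Of 13 plasma cell and antibody genes 4 fell and 0 rose (0 higher and 4 lower in the offset fit, as counted, 0 higher and 1 lower without CD41pos KO 2), with sums of 624 to 1219 CPM in WT and 455.5 to 507 CPM in KO. The immunoglobulin genes Ighm, Igkc, Ighg2b, Ighg2c, Igha and Iglc2 were among 19 listed but had no deposited counts. The sums thus leave out their RNA. Of 22 endothelial markers 5 fell and 1 rose (1 higher and 3 lower in the offset fit, as counted, 0 higher and 1 lower without CD41pos KO 2), and the sums overlapped, at 640 to 812 and 738 to 787 CPM. Neutrophil markers summed to 35.6, 110 and 352 CPM in WT and 48.7 to 63.7 CPM in KO, with 1 of 15 lower (0 higher and 0 lower in the offset fit, as counted, 0 higher and 0 lower without CD41neg KO 3). Markers of T and NK cells summed to 245 to 334.5 CPM in WT and 92.0 to 156.5 CPM in KO, with 1 of 19 lower (0 higher and 1 lower in the offset fit, as counted, 0 higher and 2 lower without CD41neg KO 2). Trac, Trbc1 and Trbc2, of the T cell receptor, were listed too but had no deposited counts. The 22 listed markers of monocytes, macrophages and dendritic cells summed to 301 to 409 CPM in WT and 247 to 363 CPM in KO. Of the 21 tested, 1 was lower (0 higher and 2 lower in the offset fit, as counted, 0 higher and 2 lower without CD41neg KO 2). The term fit gave 0 higher and 2 lower for plasma cell and antibody genes, 1 higher and 0 lower (1 and 0 without the 4 WT libraries) for neutrophil markers and 0 higher and 4 lower for T and NK cell markers. Calls that ended when 1 library was left out were those of Col1a1 (4 of 12 fits, adjusted p up to 0.105 without CD41pos KO 2).

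**Figure D5:**
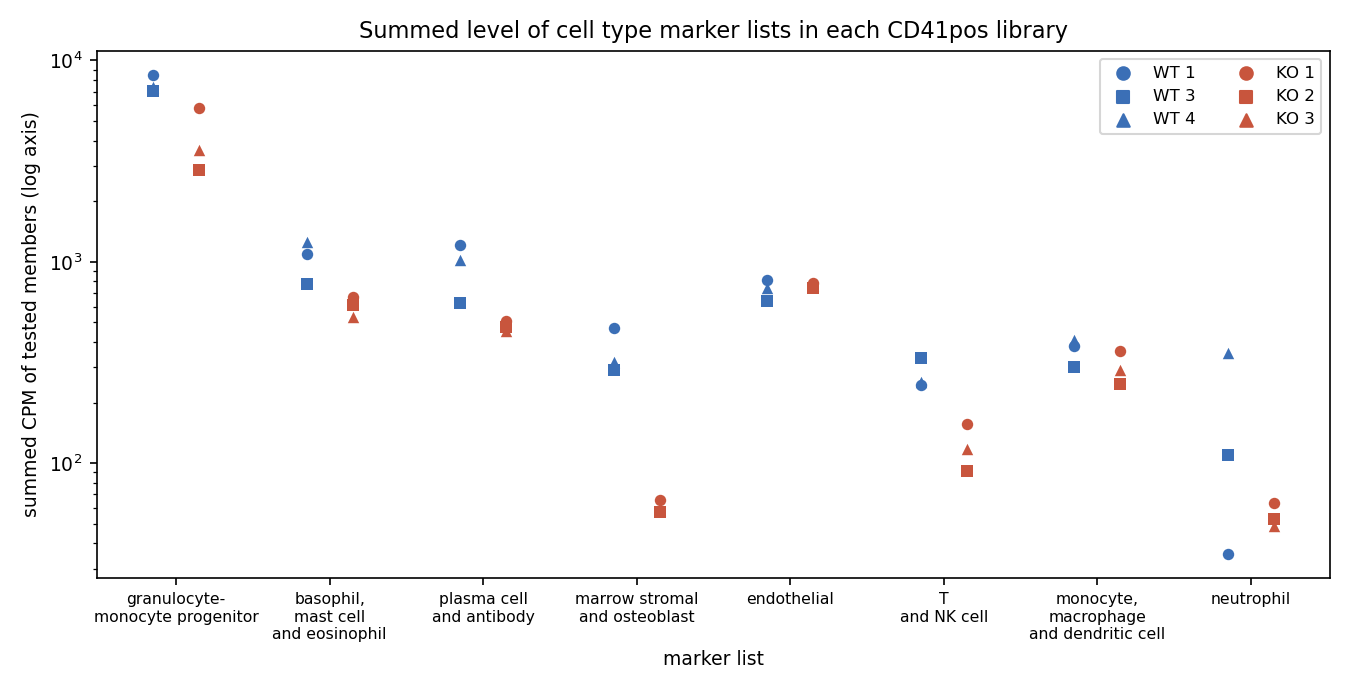
Summed level of 8 marker lists in each CD41pos library. The y axis is the summed CPM on a log scale of all listed genes with deposited counts, tested or not, although its label says tested members. Each symbol is a library. Stromal markers lie between 291.5 and 468 CPM in WT and between 57.0 and 65.3 CPM in KO, while endothelial markers overlap.

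Ribosomal protein genes are short and abundant. Of 85 cytosolic ribosomal protein genes 0 rose and 1 fell, although the median was -0.54 and 84 of 85 were negative; with offsets the median was -0.15 and 1 rose and 2 fell (as counted, 0 higher and 0 lower without CD41pos KO 1 and 0 higher and 33 lower without CD41pos WT 4). Over the 86 listed genes, 1 of them untested, WT 3 held 46270 CPM. The other WT libraries held 25060 and 26710 CPM and the KO libraries 22900 to 23940 CPM. Without WT 3 the median was -0.16 with 0 called in either direction. Nuclear genes of oxidative phosphorylation showed 1 of 82 higher and 4 lower with a median of -0.50, and 0 and 1 with -0.08 in the offset fit (as counted, 0 higher and 0 lower without CD41pos KO 2 and 1 higher and 18 lower without CD41pos WT 4). Of 23 glycolysis genes 3 fell and 0 rose, and 0 fell and 1 rose with offsets (as counted, 0 higher and 0 lower without CD41pos KO 1). Among 32 endoplasmic reticulum chaperone and stress genes 7 rose and 1 fell, and 1 and 0 with offsets (as counted, 2 higher and 0 lower without CD41pos KO 3). Hsp90b1, the chaperone GRP94, was the 1 that kept its call, at 505, 463 and 502 CPM in WT and 795, 873 and 768 CPM in KO (0.73 ± 0.11, adjusted p = 0.00342). List counts in the term fit were 0 higher and 33 lower (0 and 82 without the 4 WT libraries) for cytosolic ribosomal protein genes, 1 higher and 21 lower (2 and 71 without the 4 WT libraries) for nuclear oxidative phosphorylation genes and 1 higher and 7 lower for glycolysis enzymes and glucose transporters.

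Whether a change in CD41pos cells differed from that in CD41neg cells was tested with the interaction of genotype and gate. None of 19395 genes passed with edgeR (0.0%), 1093 had an unadjusted p below 0.05, and DESeq2 called 72. The smallest interaction p-values among genes higher in CD41pos KO included Hs3st1 and Thbd. Hs3st1 rose in CD41pos cells as given above and was at 4.18 ± 1.52 CPM in WT and 2.22 ± 1.15 CPM in KO (SD, n = 3) in CD41neg cells (-0.92 ± 0.37, interaction 3.42 ± 0.52, adjusted p = 0.155). For Thbd the CD41neg levels were 23.7 ± 5.93 CPM in WT and 18.9 ± 4.19 CPM in KO (SD, n = 3) (-0.33 ± 0.22, interaction 1.84 ± 0.32, adjusted p = 0.328). Alox12 was at 2.36 ± 1.32 CPM in WT and 2.00 ± 0.941 CPM in KO (SD, n = 3) in CD41neg cells (-0.24 ± 0.48, interaction 3.33 ± 0.69, adjusted p = 0.515), whereas Prss34 (-8.68 ± 0.76) and Cd48 (1.79 ± 0.17) had CD41neg changes close to those in CD41pos cells. The difference between gates was therefore not called for any of these genes. KO libraries 1, 2 and 3 and WT libraries 3 and 4 carry the same numbers in both gates. The labels do not say whether a number stands for an animal, and this test treated the libraries as independent.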

How the data were processed

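CD41pos and CD41neg HSCs of both genotypes gave 12 SMART-Seq v4 libraries, an unstranded kit, so overlapping antisense genes cannot be told apart. The authors deposited whole-number read counts per gene and TPM (length-scaled transcript abundance) tables. Per the submitters' processing notes, STAR 2.6.1e, featureCounts 1.6.2, cutadapt 1.9.1 and FastQC 0.11.7 were used with mm10. In the deposited counts, 27 gene names had turned into dates, and names were taken from the TPM table. Of 35869 genes, 19395 passed the low-count filter of edgeR and 16474 did not. Counts were fitted over all 12 libraries, 3 in each of 4 groups, with edgeR 4.0.16 (TMM, quasi-likelihood test) in R 4.3.3, with Benjamini-Hochberg adjusted p over all tested genes. Replicate libraries within a CD41pos group differed beyond sampling noise (chi-square per degree of freedom 21.4 to 262).

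The members and 43 gene lists (1213 entries, 15 without a row) were chosen with earlier results of these data known. Named genes were Runx1, Itga2b and identity markers, the 20 largest changes each way among called genes whose higher group averaged 10 CPM or more, with no overlap (predicted, small RNA, mitochondrial and sex-linked marker genes left out), the 15 largest each way among calls held by 17 fits where that average was 50 CPM or more, up to 4 called genes each way per list and the most abundant that did not pass, the 5 smallest interaction p-values each way, and the genes that mark libraries standing apart. Others named were chosen after their values were seen. Alternatives were DESeq2 1.42.0, its size factors, limma 3.58.1 on log2(TPM + 1) and log2(TPM + 0.1) and with quality weights, and other filters. Further ones were a minimum log2 change of 1, a Y-linked covariate and a replicate block. The label of genotype and number as a random block, the 6 libraries alone and each library left out were also used. The offsets for transcript length and GC (17119 genes, splines of 5 degrees of freedom) and their repeat with CD41pos WT 3 left out were added after the data were seen, as were both motif searches, the narrower letters once the shares with the wider ones were known. Only the standard fit and the offset fit were run on simulated counts, which had the same dispersion for every gene and no outlying library. The other fits were not run on them, and the outcome is not reported here. Some named items are not reported here.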

Additional observations from a re-analysis of the deposited data

Results flagged for a closer look

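For 3 genes, all KO libraries lay on one side of the WT libraries in CD41pos cells and on the other side in CD41neg cells. Only genes picked for naming and called in CD41pos cells were searched. How many of all tested genes had this pattern was not counted, so the 3 are no result about frequency. In CD41pos cells alone all KO libraries lay above all WT libraries for 21.9% of tested genes and below for 22.4%. Clu, encoding the chaperone clusterin, measured 44.4, 40.4 and 45.5 CPM in WT and 77.2, 120.2 and 96.2 CPM in KO in CD41pos cells and 9.14 ± 1.69 CPM in WT and 2.94 ± 2.12 CPM in KO (SD, n = 3) in CD41neg cells, with an interaction of 2.81 on the log2 scale (adjusted p = 0.452). H2-DMa, a chain of the MHC class II peptide exchanger, measured 145, 159 and 158 CPM in WT against 111, 124 and 107 CPM in KO in CD41pos cells and 106 ± 8.84 CPM in WT and 117 ± 5.84 CPM in KO (SD, n = 3) in CD41neg cells, with an interaction of -0.58 (adjusted p = 0.663). Lifr, the receptor for leukaemia inhibitory factor, measured 2.64, 1.20 and 0.857 CPM in WT against 3.06, 9.66 and 4.65 CPM in KO in CD41pos cells and 4.23 ± 1.52 CPM in WT and 0.921 ± 0.345 CPM in KO (SD, n = 3) in CD41neg cells, with an interaction of 4.08 (adjusted p = 0.452). The interaction was tested by edgeR and passed for none of the 3 genes.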

How the results depend on the processing

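Of 19395 genes 3309 were called in CD41pos cells, 57.39% of them higher in KO, and the count moved by over 1.5 times with DESeq2 (5052), library quality weights (6456), log2(TPM + 0.1) (2090), a minimum log2 change of 1 (46), only the 6 CD41pos libraries (2154), length and GC offsets (1849), those offsets with CD41pos WT 3 left out (1461) and without the 4 WT libraries that stand apart (7639). That last fit leaves 1 WT library a gate, assumed to vary like the KO libraries, which supply the spread. Leaving out 1 library gave 965 genes (without KO 2) to 4076 (without WT 4). The share higher in KO was 68.69% with log2(TPM + 1) and 19.57% with the minimum change. The interaction called 0 genes with edgeR, 72 with DESeq2, 26 with log2(TPM + 0.1), 7 with log2(TPM + 1), 3 with quality weights, 2 without the low-count filter, 1 with offsets and CD41pos WT 3 left out, 3467 without the 4 WT libraries and 0 to 2 without 1 library. The cause of these differences was not tested.

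With the replicate number as a block 957 genes were called, of which 935 were called without it. As deviations from their group means over 10206 genes, same-numbered WT and KO libraries had r = -0.006 for number 1 and -0.013 for number 3. Differently numbered pairs ran from -0.026 to 0.045. With so few same-numbered pairs, these values cannot decide whether a number marks a shared batch.

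The 397 genes picked for naming were followed through each alternative fit. A turn in direction was counted only for genes called in the standard fit or the alternative. It was seen for Aes (0.029) and Mrpl4 (0.004) with offsets and CD41pos WT 3 left out, and for Dnajc3 (-0.01) and Smc3 (-0.16) with offsets. Txnip turned with the term (0.62) and without the 4 WT libraries (0.98), and Hba-a1 without those 4 (-0.68). Turns of genes called in neither fit are not listed, such as Runx2 (-0.095 in the standard fit, 0.074 on log2(TPM + 1)). Total counts were at least 45673485 in each CD41pos library and 44108035 in CD41neg WT 3, and with 3 libraries a group the spread between them limits the precision.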

Other observations

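Receptors and ligands of axon guidance, which also steer migrating blood and vessel cells, were called in 3 of 28 cases higher and 4 lower (as counted, 0 higher and 1 lower without CD41pos KO 2), 10.7% and 14.3% beside 9.79% and 7.27% of all genes, and 2 and 1 in the offset fit. Sema4a, a semaphorin that acts on immune cells, measured 42.5, 13.6 and 28.9 CPM in WT and 4.34, 3.39 and 3.51 CPM in KO (-2.92 ± 0.39, adjusted p = 0.00201), and every KO library was below every WT library. Plxnc1, a semaphorin receptor, was at 246, 120.5 and 261 CPM in WT against 406, 542 and 464 CPM in KO (1.17 ± 0.27, adjusted p = 0.0147). Among 32 genes of TGF-beta, BMP, Notch and Wnt signalling 4 rose and 3 fell (as counted, 1 higher and 0 lower without CD41pos KO 2), and 2 and 1 in the offset fit. Skil, encoding SnoN, a nuclear brake on SMAD signalling, measured 7.45, 11.2 and 13.1 CPM in WT and 27.7, 40.3 and 36.4 CPM in KO (1.71 ± 0.24, adjusted p = 0.0026). Id2, an inhibitor of helix-loop-helix factors, was at 7.84, 15.9 and 15.4 CPM in WT against 6.26, 4.46 and 5.51 CPM in KO (-1.27 ± 0.34, adjusted p = 0.0273). Il18r1, the IL-18 receptor of lymphocytes and basophils, measured 1.21, 1.32 and 3.26 CPM in WT against 0.0182, 0.197 and 0.158 CPM in KO (-3.93 ± 0.83, adjusted p = 0.0105). List counts in the term fit were 3 higher and 3 lower (3 and 2 without the 4 WT libraries) for guidance receptors and ligands. Calls that ended when 1 library was left out were those of Plxnc1 (1 of 12 fits, adjusted p up to 0.0649 without CD41pos KO 2) and Id2 (5 of 12 fits, adjusted p up to 0.112 without CD41pos KO 2).

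Of 10 MHC class II genes, which present antigen, 4 fell and 1 rose (as counted, 1 higher and 2 lower without CD41pos KO 1), and 0 fell and 1 rose in the offset fit. Cd74, the invariant chain, measured 78.3, 119 and 183 CPM in WT and 32.1, 46.3 and 35.5 CPM in KO (-1.74 ± 0.34, adjusted p = 0.00743). H2-Ob, a chain of the inhibitory H2-O molecule, rose by 1.17 on the log2 scale. Of 29 lymphoid priming genes 3 rose and 1 fell (1 higher and 1 lower in the offset fit, as counted, 1 higher and 0 lower without CD41pos KO 1). Of 23 p53 targets 2 rose and 1 fell (2 higher and 0 lower in the offset fit, as counted, 1 higher and 0 lower without CD41pos KO 1 and 5 higher and 1 lower without CD41neg WT 3). Polk, a DNA polymerase that copies past lesions, was at 11.2, 7.45 and 17.1 CPM in WT against 30.6, 36.4 and 32.5 CPM in KO (1.47 ± 0.30, adjusted p = 0.00918). Of 33 ribosome biogenesis genes 6 rose and 1 fell (4 higher and 0 lower in the offset fit, as counted, 2 higher and 0 lower without CD41pos KO 1 and 7 higher and 4 lower without CD41pos WT 4), and Heatr1, a factor of ribosomal RNA synthesis, measured 113, 69.2 and 108 CPM in WT against 219.5, 215 and 216 CPM in KO (1.16 ± 0.19, adjusted p = 0.0039). F10, coagulation factor X, fell from 16.4, 12 and 16.4 CPM in WT to 4.36, 4.79 and 1.56 CPM in KO (-2.06 ± 0.43, adjusted p = 0.0104). The term fit gave 4 higher and 4 lower for p53 target genes and 8 higher and 6 lower for ribosome biogenesis genes. Without 1 of the 12 libraries calls ended for H2-Ob (1 of 12 fits, adjusted p up to 0.0667 without CD41pos KO 2). With length and GC offsets the call ended for Cd74 (adjusted p = 0.0605).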
